A study of Mus musculus with 6 samples.

Results

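Endothelial cells line blood vessels, and a small set of genes is used across tissues to mark them. In all, 8 such genes were examined in fibroblasts exposed to hydrogen peroxide (H2O2), an oxidant: Pecam1, Vwf, Cldn5, Robo4, Cdh5, Kdr, Tek and Tie1. The 8 genes are the members, on this array, of an endothelial marker list, and the list was selected on the measured 2 h over untreated change of these arrays, in which several members were higher. The array carries 14 of its 41174 probes for these genes, which are 8 of its 27670 gene names. The cells were primary fibroblasts from mouse embryos, cultured in DMEM with 10% fetal calf serum. Total RNA was hybridised to one-colour Agilent arrays in 3 groups of 2: untreated cells (0 h), cells after 2 h in 1 mM H2O2 and cells after 4 h in 1 mM H2O2. All groups were the same kind of cell; strain, embryo age, passage and sorting are not given in the sources used here. The arrays of a group are described as independent experiments, and n = 2 arrays per group throughout.

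By background knowledge, the 8 genes fall into groups of roles. Pecam1 encodes an adhesion molecule between endothelial cells that platelets and leukocytes carry as well, Cdh5 encodes VE-cadherin of endothelial adherens junctions, and Cldn5 encodes a tight junction claudin of the blood-brain barrier. Vwf encodes von Willebrand factor, a secreted clotting protein stored by endothelial cells and megakaryocytes. Robo4 encodes a roundabout receptor of endothelial cells, Kdr encodes the receptor VEGFR2 for vascular endothelial growth factor, Tek encodes TIE2, the receptor of the angiopoietins, and Tie1 encodes its partner. ETS transcription factors such as ERG, FLI1 and ETS1 bind a GGAAG-type core in the promoters of many endothelial genes.

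Signal is given as a percentage of the 75th percentile of the processed signal on the same array, so levels can be followed across arrays for a probe but not between probes. A probe is called above background where the scanner software marked it well above background, by most of its spots where it was printed several times. The 75th percentile lay between 674 and 883 intensity units, the share of spots above background ran between 57.3% and 68.0%, none was saturated, and replicate arrays correlated across genes at r = 0.992 to 0.994. The lowest signal called above background lay between 1.68% and 3.93% of the 75th percentile, being higher on the 4 h arrays (3.93% and 3.28%) than on the untreated arrays (2.40% and 1.68%). All 15 fibroblast markers examined were above background on all 6 arrays. Arrays numbered 1 shared a slide and arrays numbered 2 shared the other, with a time point always at 1 slide position, so time and position cannot be told apart. In a cell population, a higher signal from more cells of a kind and from more RNA per cell cannot be told apart.

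Across the 8 genes, 3 patterns were seen. Robo4, Cldn5 and Pecam1 were at or near background in untreated fibroblasts, stood highest at 2 h and read lower at 4 h. Vwf was above background before treatment and was highest at 4 h. Kdr and Tek were above background on all 6 arrays with little movement, and Cdh5 and Tie1 were not above background on any array. Of the 14 probes, 8 were above background on both arrays of some group and 6 were above it on none.

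**Figure D1:**
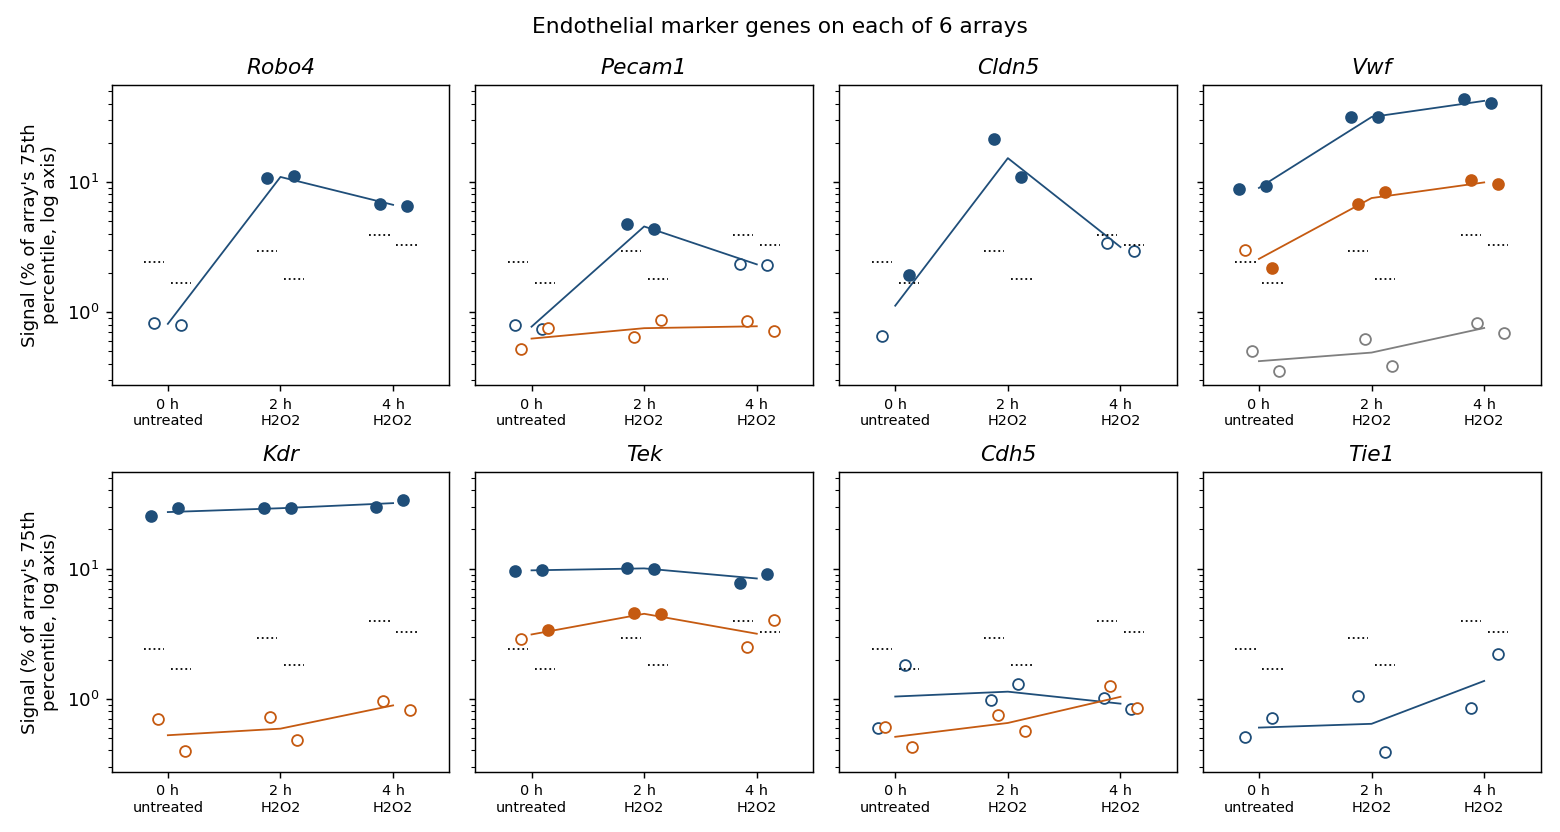
Signal of each of the 14 probes on each of the 6 arrays, as a percentage of the array's 75th percentile on a log axis, in untreated cells (0 h) and after 2 h and 4 h in H2O2. Filled points are above background, open points are not, colours separate the probes of a gene (blue is the brightest), lines join group means on the log scale, and dotted bars mark the lowest signal above background on each array. Robo4, Pecam1 and Cldn5 stand highest at 2 h, the blue and orange Vwf probes at 4 h, and all Cdh5 and Tie1 points are open.

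Promoter sequence is shown for a pair of genes whose signal was high at 2 h (Robo4 and Cldn5) and a pair whose signal was nearly flat (Kdr and Tek), to set the ETS core beside the values. Each line is the 250 bases before the transcription start, from RefSeq on GRCm38.p6, 5′ to 3′ along the gene, with every GGAAG core (CTTCC where it lies on the other strand) in capitals. The windows are chr9:37401722-37401971 (plus strand) for Robo4, chr16:18776597-18776846 (plus strand) for Cldn5, chr5:75978456-75978705 (minus strand) for Kdr and chr4:94739039-94739288 (plus strand) for Tek. RefSeq entries were found for 5 of the 8 genes, the fifth being Tie1.
Robo4: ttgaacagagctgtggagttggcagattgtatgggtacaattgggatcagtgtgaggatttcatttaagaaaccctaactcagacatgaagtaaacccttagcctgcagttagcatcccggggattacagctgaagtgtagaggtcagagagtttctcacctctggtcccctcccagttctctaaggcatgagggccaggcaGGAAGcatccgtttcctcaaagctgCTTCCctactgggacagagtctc
Cldn5: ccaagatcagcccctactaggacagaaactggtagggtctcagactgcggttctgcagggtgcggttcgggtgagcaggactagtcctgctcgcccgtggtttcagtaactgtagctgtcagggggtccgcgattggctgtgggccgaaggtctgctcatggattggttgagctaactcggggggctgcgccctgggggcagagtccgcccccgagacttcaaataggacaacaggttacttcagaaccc
Kdr: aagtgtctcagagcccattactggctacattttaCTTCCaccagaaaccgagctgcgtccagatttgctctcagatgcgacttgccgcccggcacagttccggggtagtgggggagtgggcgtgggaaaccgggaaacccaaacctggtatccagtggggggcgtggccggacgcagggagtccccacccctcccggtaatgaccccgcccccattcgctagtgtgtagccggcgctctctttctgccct
Tek: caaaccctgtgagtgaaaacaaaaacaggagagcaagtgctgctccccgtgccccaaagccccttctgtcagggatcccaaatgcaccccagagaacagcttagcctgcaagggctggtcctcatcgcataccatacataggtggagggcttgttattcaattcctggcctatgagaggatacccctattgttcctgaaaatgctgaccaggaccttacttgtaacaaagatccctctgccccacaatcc

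The Robo4 window held 2 cores, beginning 48 and 23 bases before the start and on opposite strands. The Kdr window held 1, beginning 216 bases before the start, and the Cldn5 and Tek windows held none. The Tie1 window, from a gene that was not above background on any array, held 6. A core was present in 64.1% of all 32851 promoter windows of this length, and among the members it was present in a gene that was high at 2 h and in genes that were flat or dim. The AP-1 site TGACTCA (4.46% of all windows), the TATA box TATAAA (12.4%) and the GATA motif AGATAA (9.99%) were in none of the 5 windows on either strand. The GC box GGGCGG, found in 32.7% of all windows, was present once in the Cldn5 window and 2 times in the Kdr window, and the antioxidant response element core TGACNNNGC, found in 10.2%, was in the Kdr window only among the 5.

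Robo4 was high at both times in H2O2. Its probe read 0.83% and 0.79% in untreated cells, 10.7% and 11.2% at 2 h and 6.79% and 6.53% at 4 h, and it was above background on all 4 treated arrays and neither untreated one. The 3 groups did not overlap. The log2 change was 3.75 ± 0.06 (SE) at 2 h over untreated, at least 5.43-fold higher against the lowest signal above background. This comparison was the one that chose the gene, so no test is given for it.

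Pecam1 followed the same order. Its brighter probe, printed as 10 spots, read 0.80% and 0.74% in untreated cells, 4.71% and 4.38% at 2 h and 2.33% and 2.31% at 4 h. The groups did not overlap, but only the 2 h arrays were above background. On those arrays 9 and 10 of the 10 spots were marked above background, against 0 and 1 on the untreated arrays and 0 on either 4 h array. The log2 change at 2 h over untreated was 2.56 ± 0.07, at least 2.26-fold higher. The other Pecam1 probe stayed between 0.52% and 0.87% on all 6 arrays and was not above background on any, so the gene's signal rests on 1 probe, and with the mean of both probes the change at 2 h was 1.41.

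Among the 6 tested members, Cldn5 varied most between replicate arrays in untreated cells and at 2 h. Its single probe read 0.65% and 1.91% in untreated cells, 21.3% and 10.9% at 2 h and 3.37% and 2.96% at 4 h. The 2 h arrays stood apart from the others, and 1 of the 2 untreated arrays and neither 4 h array were above background. The log2 change at 2 h over untreated was 3.77 ± 0.60, which was 5.03 on slide 1 and 2.51 on slide 2. The slide with the larger change had both the higher 2 h signal and the lower untreated signal.

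Vwf, the clotting protein gene, was highest at 4 h. Its brightest probe read 8.76% and 9.22% in untreated cells, 31.55% and 31.53% at 2 h and 43.7% and 40.3% at 4 h. All 6 arrays were above background and the groups did not overlap. The change at 2 h over untreated was 1.81 ± 0.07 on the log2 scale, or 3.51-fold. A second Vwf probe moved in the same order, with 3.01% and 2.17% in untreated cells, 6.79% and 8.31% at 2 h and 10.3% and 9.56% at 4 h, and a log2 change of 1.55 at 2 h. The third Vwf probe was not above background on any array.

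Of the receptor tyrosine kinases, Kdr and Tek were measured in every group. The brighter Kdr probe, printed as 10 spots, read 25.5% and 29.0% in untreated cells, 29.1% and 29.2% at 2 h and 30.0% and 33.9% at 4 h, with a log2 change of 0.10 ± 0.10 at 2 h. The brighter Tek probe read 9.62% and 9.78%, 10.2% and 9.89%, and 7.82% and 9.03% at the same times, with a change of 0.05 ± 0.09 at 2 h. Each change was no larger than about its standard error, and both turned negative when arrays were scaled on their median (-0.10 for Kdr and -0.15 for Tek). The second Tek probe read 2.86% and 3.39% in untreated cells, 4.52% and 4.47% at 2 h and 2.48% and 4.02% at 4 h. It differed from the brighter one, with a log2 change of 0.53 at 2 h.

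Cdh5 and Tie1, the VE-cadherin and TIE1 genes, gave no signal above background. The Cdh5 probes lay between 0.43% and 1.82% and the Tie1 probe between 0.39% and 2.20% over the 6 arrays, with untreated and treated values overlapping at 2 h. Neither gene entered the tests. Counting the 8 genes by state, 4 were not above background on either untreated array (Pecam1, Robo4, Cdh5 and Tie1). Of these 4, 2 were above background on both 2 h arrays (50%) and 1 on both 4 h arrays (25%), while of 9599 gene names in that state on the whole array 511 (5.32%) and 271 (2.82%) were. These shares describe the choice of genes as well as the cells, since the list was chosen for its signal at 2 h.

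Tests ran over the 17184 genes with both arrays above background in 1 group or more, 6 of the 8 members among them. Robo4 entered through its treated groups alone, and Pecam1 and Cldn5 through the 2 h group alone, the group in which the list was chosen as high. At 2 h over untreated, 4 of the 6 were called higher at an adjusted p under 0.05, and none lower, against 23.8% higher and 15.3% lower of all genes tested. Since that comparison chose the genes, nothing is read from the count. The median log2 change of all genes was 0.12 at 2 h and 0.07 at 4 h over untreated, and -0.08 at 4 h over 2 h.

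At 4 h, 3 of the 6 members were higher than in untreated cells and none was lower, where 24.7% of all genes tested were higher and 18.5% lower. The untreated arrays are those that also chose the genes, so the p-values are not independent of the choice. Robo4, Pecam1 and Cldn5 entered the tests through treated groups alone. Nothing is therefore read from the count, and the p-values of these genes are given as a description only. Robo4 was higher by a log2 change of 3.04 ± 0.06 (adjusted p = 0.000125), at least 3.31-fold, with 3.04 on each slide. Vwf was higher by 2.22 ± 0.07 (adjusted p = 0.000239), or 4.67-fold, and its second probe by 1.95 (adjusted p = 0.00281 when every probe was tested). Pecam1 was higher by 1.59 ± 0.07 (adjusted p = 0.000448), but neither group was above background, so no fold is given. The 6 member probes that were above background on no array differed by -0.18 to 1.19 in the same comparison. A change between groups not above background is therefore not read as a rise. The Pecam1 call was lost with normexp background correction and the 75th percentile (1.05, adjusted p = 0.117). It was kept with normexp and quantile normalization (0.16, adjusted p = 0.0462).

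The other 3 members did not pass at 4 h. Cldn5, which entered the tests through the 2 h arrays that chose it, differed by 1.5 ± 0.60 (adjusted p = 0.109), with a 95% interval of -0.09 to 3.09 that reaches to both no change and a large rise. The change was 2.27 without untreated replicate 2, the only untreated array on which Cldn5 was above background. Without untreated replicate 1 it was 0.73. Kdr differed by 0.23 ± 0.10 (adjusted p = 0.126, interval -0.03 to 0.49) and Tek by -0.21 ± 0.09 (adjusted p = 0.117, interval -0.43 to 0.02). Tek passed as lower under several scalings, with -0.34 (adjusted p = 0.0267) after quantile normalization and -0.36 (adjusted p = 0.0273) after median centring. It did not pass with the mean of its probes (-0.09, adjusted p = 0.687), and its second probe differed by 0.02.

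At 4 h over 2 h, the values are given as a description. The 2 h arrays chose the list as high, and Pecam1 and Cldn5 passed the filter through the 2 h group, so the choice itself favours a lower value at 4 h and no p-value is given. Robo4 differed by a log2 change of -0.71 ± 0.06, at 0.610 of its 2 h signal, Pecam1 by -0.97 ± 0.07 and Cldn5 by -2.27 ± 0.60. Vwf differed by 0.41 ± 0.07, or 1.33-fold, and its second probe by 0.40. Kdr differed by 0.13 and Tek by -0.26. In this comparison 13.4% of all genes tested were called higher and 16.5% lower, and no call is given for a member.

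The sign of the Robo4 and Pecam1 differences turned with normexp and the 75th percentile (0.15 and 0.34), but not with normexp and quantile normalization (-0.31 and -0.22). The Vwf difference was positive in every alternative. It ran from 0.31 with normexp and quantile normalization to 0.60 with spike-in scaling.

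Other endothelial genes were taken from lists of surface and junction genes, receptors and Notch genes, transcription factors and lymphatic markers, 76 genes on the array of which 61 were tested. At 2 h over untreated, 21 of the 61 were higher (34.4%, against 23.8% of all genes) and 11 lower (18.0%, against 15.3%), and 29 did not pass. At 4 h 18 were higher (29.5%, against 24.7%), 15 lower (24.6%, against 18.5%) and 28 did not pass. The median log2 change was 0.17 at 2 h and 0.12 at 4 h, near the medians of all genes, so in this wider list rises and falls were mixed. The balance at 2 h depended on the scaling, with 10 higher and 13 lower after median centring, 8 and 15 unscaled and 7 and 29 with spike-in scaling. In that order, 43.5%, 34.8% and 19.4% of the list genes called were higher. Of all genes called, 32.5%, 21.1% and 13.7% were, so the balance of all genes moved in the same direction. At 4 h the counts were 13 and 19, 9 and 20, and 11 and 24. The higher share was then 40.6%, 31% and 31.4% of the list genes called, against 35.7%, 24.4% and 24.3% of all genes called. Of the 76, 11 were not above background on either untreated array. Of these 11, Jag2 and Sox18 were above it on both 2 h arrays (18.2%, against 5.32% of all gene names in that state). On both 4 h arrays 1 of the 11 was (9.09%, against 2.82%).

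Among surface and junction genes, 9 of 25 were higher (36%, against 23.8% of all genes) and 4 lower (16%, against 15.3%) at 2 h. Icam2, an adhesion molecule of endothelium and leukocytes, read 14.6% and 12.5% at 2 h and 21.5% and 17.5% at 4 h, against 3.56% and 2.48% in untreated cells, with log2 changes of 2.18 and 2.70 (adjusted p = 0.00264 and 0.0016). Mmrn2, a matrix glycoprotein of vessels, was higher by 1.93 and 2.26, and the protein C receptor gene Procr by 0.91 and 1.31. The connexin gene Gja4 was higher at 2 h by 0.91 (adjusted p = 0.0209). Edn1, the endothelin-1 precursor, was lower by -1.54 and -1.49, and the connexin gene Gja5 by -0.67 at 2 h, a call lost with the mean of its probes (-0.09, adjusted p = 0.383). At 4 h 5 of 25 were higher (20%, against 24.7%) and 6 lower (24%, against 18.5%). The lower ones included Clec14a at -1.16 (adjusted p = 0.0385) and the phosphatase gene Ptprb at -1.10 (adjusted p = 0.00222). Neither Clec14a nor Ptprb kept its call with the mean of its probes (-0.13, adjusted p = 0.583, and 0.28, adjusted p = 0.326).

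Among receptors and Notch genes, 4 of 14 were higher (28.6%, against 23.8% of all genes) and 2 lower (14.3%, against 15.3%) at 2 h. At 4 h 3 were higher (21.4%, against 24.7%) and 5 lower (35.7%, against 18.5%). Jag2, a Notch ligand, followed the order seen for Robo4, with 6.48% and 7.49% at 2 h and 5.44% and 5.26% at 4 h, against 0.52% and 0.68% in untreated cells. Jag2 was at least 3.47-fold higher at 2 h and at least 2.66-fold higher at 4 h, with log2 changes of 3.55 and 3.17 (adjusted p = 0.000359 and 0.000536). Jag2 entered the tests through its treated groups alone, the groups in which it was high. Flt1, which encodes VEGFR1, was higher by 0.73 (adjusted p = 0.00126) and 1.19 (adjusted p = 0.000505), while its relative Kdr was nearly flat. Notch1 was higher at 4 h by 1.42. Notch4 was lower at 4 h by -1.07 (adjusted p = 0.00913). Eng, the co-receptor endoglin, was counted with the surface and junction genes. It was higher at 2 h by 0.55 (adjusted p = 0.0129) and differed by 0.29 at 4 h (adjusted p = 0.0654, and 0.0228 with replicate number as a block).

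The transcription factors gave 7 of 20 higher (35%, against 23.8% of all genes) and 5 lower (25%, against 15.3%) at 2 h. At 4 h 9 were higher (45%, against 24.7%) and 4 lower (20%, against 18.5%). Of the ETS factors, Ets1 was higher by 0.65 at 2 h and 0.68 at 4 h (adjusted p = 0.00505 and 0.00417), Fli1 was lower by -0.30 and -0.69 (adjusted p = 0.0247 and 0.00246), and Erg differed by 0.14 and -0.09 (adjusted p = 0.126 and 0.296). Sox18, a factor of vessel and lymphatic development, was higher at 2 h by 2.91 ± 0.69 (adjusted p = 0.0312), at least 2.58-fold, and differed by 2.19 at 4 h (adjusted p = 0.061). Sox18 entered the tests through the 2 h group alone, the group in which it was high. Sox17 and Tal1 were too dim to be tested. At 2 h Foxc1 was lower by -1.26, the venous factor gene Nr2f2 by -1.05 and Epas1, which encodes HIF-2alpha, by -1.02. Epas1 lost its call with the mean of its probes (-0.38, adjusted p = 0.169), and so did Mef2c, lower at 4 h by -1.30 (-0.22 with the mean, adjusted p = 0.395).

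Ligands of the member receptors were read from a list of 16 angiogenic ligands. At 2 h 3 were higher (18.8%, against 23.8% of all genes) and 3 lower (18.8%, against 15.3%). At 4 h 3 were higher (18.8%, against 24.7%) and 5 lower (31.2%, against 18.5%). Vegfa, the ligand of Kdr, read 880% and 850.3% at 2 h and 544% and 555% at 4 h, against 485% and 479% in untreated cells. Its log2 change was 0.84 at 2 h (adjusted p = 0.000834) and 0.19 at 4 h (adjusted p = 0.0464), where the call was lost with median centring (0.0325, adjusted p = 0.774) and the sign turned without scaling (-0.0711). Angpt2, a ligand of Tek, was higher by 0.40 (adjusted p = 0.0143) and 1.01 (adjusted p = 0.0012), with 188% and 186% at 2 h and 272% and 299.6% at 4 h, against 139% and 145% in untreated cells. Angpt1, the other Tek ligand, differed by -0.07 and -0.60 (adjusted p = 0.831 and 0.11). Vegfc differed by 0.05 at 2 h (adjusted p = 0.727) and was lower by -0.40 at 4 h (adjusted p = 0.0301). The hormone genes Adm and Apln were lower, Adm by -1.28 at 2 h and Apln by -1.26 at 4 h, and Apln lost its call with the mean of its probes (-0.58, adjusted p = 0.369).

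**Figure D2:**
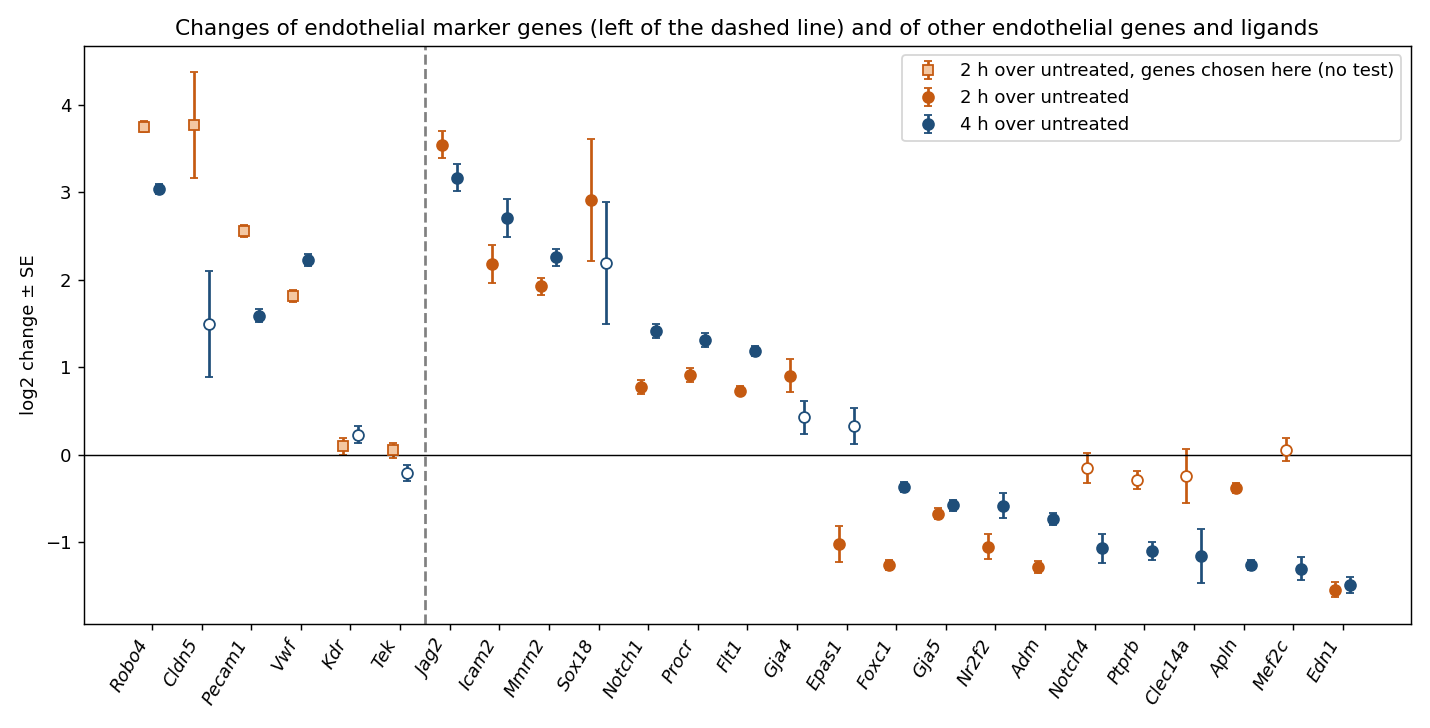
Log2 change over untreated cells with its standard error for the 6 tested marker genes (left of the dashed line) and for the other endothelial genes and ligands with the largest changes, at 2 h (orange) and 4 h (blue). Filled circles passed the test, open circles did not, and squares mark the comparison that chose the genes and has no test. Robo4, Pecam1 and Vwf are filled at 4 h, a comparison that reuses the untreated arrays that chose the genes. Kdr and Tek lie near 0. The other endothelial genes run from Jag2 at 3.55 to Edn1 at -1.54.

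Markers of other cell types were read on the same arrays. Summed over the 8 members, the signal was 110% and 98.7% of the 75th percentile at 2 h and 95.9% and 98.1% at 4 h, against 47.3% and 54.0% in untreated cells. The members were chosen on the 2 h change and levels differ between probes. Their sum is therefore a description and is not compared with the sum of another list. Of 14 tested blood cell markers, 5 were higher (35.7%, against 23.8% of all genes) and none lower at 2 h, and 6 were higher (42.9%, against 24.7%) and none lower at 4 h. Their summed signal was 2401% and 2377% at 2 h and 2391% and 2258% at 4 h, against 2105% and 1958% in untreated cells. Most of that sum was Lyz2, at 1721% and 1593% in untreated cells and 1896% and 1886% at 2 h. Itgax, the CD11c integrin gene of dendritic cells, read 53.2% and 55.9% at 2 h and 28.6% and 29.2% at 4 h, against 0.63% and 0.43% in untreated cells, at least 27.1-fold and 14.4-fold higher. The integrin genes Itgam and Itga2b were higher by 1.22 and 0.75 at 2 h and by 0.64 and 1.41 at 4 h, and Itgam lost its 4 h call with replicate number as a block (adjusted p = 0.0619). Ptprc, the pan-leukocyte CD45 gene, differed by -0.06 and -0.07, the platelet gene Pf4 by 0.13 and -0.16, and neither passed. The myeloid factor gene Spi1 was not above background on any array. Ptprc, Pf4, Lyz2, Adgre1, Tyrobp, Csf1r, Cd68 and Cd14 were above background on all 6 arrays, the untreated ones included. Csf1r read 73.0% and 65.0% at 2 h, against 50.6% and 49.0% in untreated cells. Cd68 read 63.7% and 60.3% at 2 h, against 42.7% and 41.8%. The part of blood cells in the member changes was not tested.

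The remaining lists are set beside all genes tested, of which 23.8% were higher and 15.3% lower at 2 h. At 4 h these shares were 24.7% and 18.5%. Of 15 fibroblast markers, 6 were higher (40%) and 2 lower (13.3%) at each time. The lower ones were Pdgfra (-1.08 at 2 h and -0.70 at 4 h) and Twist1 (-0.65 and -0.70). Vim was higher by 0.39 at 2 h and S100a4 by 0.37 at 4 h. Smooth muscle and pericyte markers gave 2 higher (16.7%) and 1 lower (8.33%) of 12 at 2 h and 1 higher (8.33%) and 2 lower (16.7%) at 4 h. Neural markers gave 1 higher (16.7%) and 1 lower (16.7%) of 6 at 2 h, and 1 higher (16.7%) and 3 lower (50%) at 4 h. Of 2 tested lymphatic markers, Pdpn was higher at both times and Reln did not pass.

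**Figure D3:**
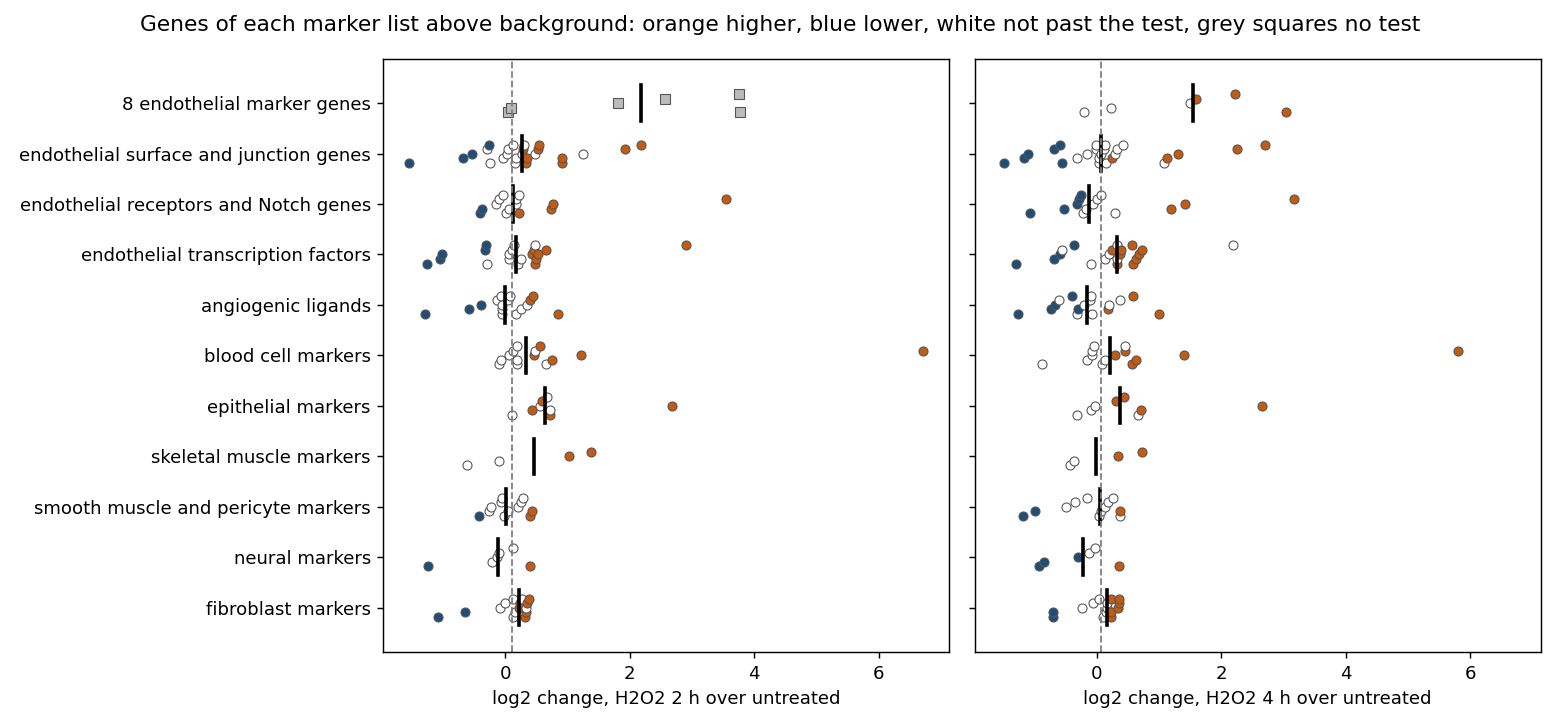
Log2 change over untreated cells of every tested gene in each marker list, at 2 h (left) and 4 h (right), on a common axis. Each point is a gene, black bars are list medians and the dashed line is the median of all genes tested (0.12 and 0.07). Rises beyond 2 are seen in the endothelial, blood cell and epithelial lists, with Itgax farthest right, and the fibroblast list lies between -1.08 and 0.39 at 2 h.

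Relatives of Robo4 and Cldn5 were compared after their values had been seen. Robo3, a roundabout gene that guides axons and is the nearest gene to Robo4 on its higher-coordinate side of mouse chromosome 9, read 16.6% and 15.0% at 2 h and 73.6% and 67.9% at 4 h, against 3.81% and 3.22% in untreated cells. It was higher by a log2 change of 2.17 at 2 h (adjusted p = 0.000508) and 4.34 at 4 h (adjusted p = 0.000191), or 20.2-fold. Robo3 was higher at 4 h than at 2 h by 2.16 (adjusted p = 0.00177), where Robo4 differed by -0.71. Robo1 and Robo2 did not pass at 2 h and were lower at 4 h by -0.40 and -0.62 (adjusted p = 0.00834 and 0.0172), turning to 0.15 with the mean of the Robo1 probes and to 0.32 with normexp and the 75th percentile for Robo2, which stayed lower (-0.30) with normexp and quantile normalization.

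Of 21 claudin genes on the array, 9 were tested. Leaving aside Cldn5, which the 2 h comparison chose, 3 of the other 8 were higher (Cldn15, Cldn11 and Cldn3) and 1 lower (Cldn12) at 2 h, where 23.8% of all genes were higher and 15.3% lower. At 4 h 2 of the 9 were higher (Cldn15 and Cldn3) and 1 lower (Cldn1), where 24.7% of all genes were higher and 18.5% lower. Cldn15 followed the order of Cldn5 with closer replicates, with 45.7% and 45.0% at 2 h and 30.7% and 33.6% at 4 h, against 9.37% and 9.93% in untreated cells. Its log2 changes were 2.23 (adjusted p = 0.000201) and 1.74 (adjusted p = 0.000404). The 2 h changes were 0.93 for Cldn11, 0.72 for Cldn3 and -0.63 for Cldn12.

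**Figure D4:**
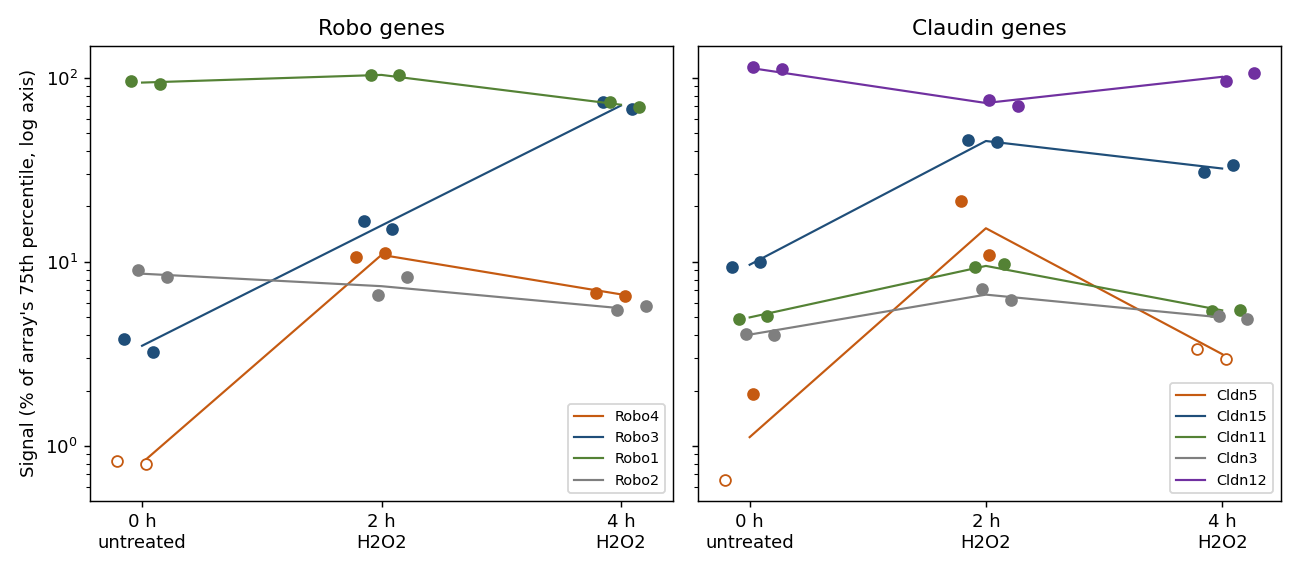
Signal of the roundabout genes (left) and of claudin genes (right) on each array at 0 h, 2 h and 4 h. Values are a percentage of the array's 75th percentile on a log axis. The claudins are Cldn5, which the 2 h comparison chose, and Cldn15, Cldn11, Cldn3 and Cldn12, called at 2 h. Filled points are above background, open points are not, and lines join group means on the log scale. Robo3 climbs at each time to 73.6% and 67.9%, Robo4 and Cldn15 stand highest at 2 h, and levels of different genes are not comparable.

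Genes with the most similar course were found by the root mean square difference between log2 values centred over the 6 arrays. For Pecam1 they were Crtam (0.0653) and Kif5a (0.0807), for Vwf Sp6 and Hoatz (0.0648 each), and for Robo4 Saa2 (0.106) and Fut7 (0.135). Cldn5 had no close match, its nearest being Cyp2c23 (0.431) and Angptl7 (0.512). Kdr was nearest to Uggt1 (0.0181) and Xdh (0.0255), and Tek to Fst (0.024) and Skap2 (0.0301), small values since neither member moved much. With 6 arrays that share slides and scaling, these are descriptions and say nothing of shared control.

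Chromosomal neighbours of the members, from the RefSeq gene table on GRCm38.p6, were tested at 4 of the 8 loci. Beside Robo3, Tex2 next to Pecam1 differed by -0.13 at 2 h (adjusted p = 0.182) and was lower at 4 h by -0.40 (adjusted p = 0.0114), and Cdc45 next to Cldn5 differed by -0.09 (adjusted p = 0.457) and was lower at 4 h by -0.68 (adjusted p = 0.00605). Bean1, next to Cdh5, was higher by 0.87 (adjusted p = 0.00511) and 1.2 (adjusted p = 0.00212), while Cdh5 itself was not above background.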

How the data were processed

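Scanning (G2505B scanner) and signal extraction (Feature Extraction 9.5.3.1, protocol GE1-v5_95_Feb07) were done by the authors, per the file headers. The deposited files hold linear fluorescence intensity per spot, and the processed signal, which the deposited value table equals within 0.0005, was used. Here it was taken to log2, each array's 75th percentile over 43379 non-control spots was subtracted, spots with outlier flags (99 to 149 per array) were dropped, and spots of a probe were averaged, so log2 values were computed here from the deposited intensity. Probes were named by RefSeq accession (22951), symbol (6659), older symbol (3109) or the file's own name (8455). The brightest probe stood for a gene.

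All 6 arrays entered 1 model in limma 3.58.1 (R 4.3.3, data.table package version 1.17.8; 3 residual and 1.64 prior degrees of freedom), tested on simulated data first. P-values were adjusted by Benjamini-Hochberg over all genes tested. "At least" folds set the brighter group against each array's lowest signal above background. Same-numbered arrays shared a slide per the file headers, and their deviations correlated at 0.243, 0.2 and 0.24, so a fit with replicate number as a block was an alternative. A slide block would be the same fit. Other alternatives were background correction, scaling, the filter, probe choice and leaving out each array. In what way experiments were independent is not stated, so p-values measure only the spread between these arrays.

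The members, the lists, the ligands and factors named whatever their result, and the rule for naming genes were chosen with earlier results of these data known. By that rule, up to 6 genes a direction and time were named from the endothelial and ligand lists (largest change, past the test, treated arrays beyond untreated ones), up to 3 blood and fibroblast markers, and 2 most similar genes per member. Roundabout and claudin relatives, and other genes named outside the rule, were chosen after their values were seen.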

Additional observations from a re-analysis of the deposited data

How the results depend on the processing

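Changes of Robo4, Pecam1, Cldn5 and Vwf over untreated cells were positive under every alternative that gave a value, at both times. At 2 h this is the sign that the choice of the list favours. Cldn5 did not pass at 4 h with all 6 arrays (adjusted p = 0.109), and Pecam1 was not above background in either group of that comparison. The size of the changes depended on the background correction. With normexp and quantile normalization the change at 2 h was 0.91 for Robo4, 0.38 for Pecam1, 1.14 for Cldn5 and 1.04 for Vwf, and at 4 h 0.60, 0.16, 0.19 and 1.35. A filter that asked for signal above background on all 6 arrays left Robo4, Pecam1 and Cldn5 untested. Changes of Kdr and Tek took either sign with the scaling. Tek passed as lower at 4 h over untreated without 4 h replicate 2 (adjusted p = 0.0481). Sox18 lost its call at 2 h without either 2 h array (adjusted p = 0.124 for each). With normexp and the 75th percentile, Jag2, Sox18, Gja4, Gja5, Epas1, Eng, Angpt2 and Fli1 at 2 h, Mef2c, Ptprb, Fli1, Vegfc and Vegfa at 4 h, and Edn1 at both times no longer passed.

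Counts of genes called at 2 h, at 4 h and at 4 h over 2 h were 6724, 7416 and 5145, 1557, 2366 and 1027 with normexp and the 75th percentile, and 4038, 4553 and 2486 with no filter on dim genes. With spike-in scaling 10661 were called at 2 h. For the other endothelial genes, 32 at 2 h and 33 at 4 h, normexp and the 75th percentile gave 8 and 14, and no filter gave 17 at 2 h. Leaving out 1 array, which assumes that the lone array of a group varies like the others, gave 3552 to 5959, 3895 to 6011 and 1854 to 3930 calls, and 14 to 27 and 21 to 29 other endothelial genes. With the replicate number as a block the counts were 9079, 9296 and 6871, and 40 and 37, and no call of a member changed. Of all genes called at 2 h 60.8% were higher, but 44.1% with quantile normalization, 32.5% with median centring, 21.1% unscaled and 13.7% with spike-in scaling. At 4 h the shares were 57.2%, 45.8%, 35.7%, 24.4% and 24.3%, and at 4 h over 2 h 44.8%, 49.6%, 56.0%, 58.6% and 75%, with 76.0% under normexp and the 75th percentile. The cause of these shifts was not tested.

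Changes of sign were these. With normexp and the 75th percentile, Pecam1 and Robo4 at 4 h over 2 h became 0.34 and 0.15, Tek 0.43 at 4 h over untreated and 0.30 at 4 h over 2 h, and Clec14a, Notch4, Angpt1, Erg and Robo2 at 4 h over untreated 0.27, 0.39, 0.52, 0.0331 and 0.32, with Angpt1 at 0.0877 at 2 h. Unscaled and with spike-in scaling, Kdr at 4 h over untreated was -0.0315 and -0.0335, Vegfa at 4 h -0.0711 and -0.0731, Vegfc at 2 h -0.29 and -0.41, Erg at 2 h -0.19 and -0.31, and Angpt2 with spike-in scaling -0.0535 at 2 h. Vegfc at 2 h was -0.081 with normexp and quantile normalization, -0.0818 with quantile normalization alone and -0.15 with median centring, where Erg was -0.0548. Leaving out 1 array put Vegfc at 2 h between -0.0487 and 0.14 and Angpt1 at 2 h between -0.27 and 0.13. The mean of a gene's probes gave Ptprb 0.28, Erg 0.40 and Robo1 0.15 at 4 h and Angpt1 0.16 at 2 h. Groups of 2 arrays limit the precision, and signals near 1% of the 75th percentile, where Robo4, Pecam1 and Cldn5 start, have no fold of their own.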

Other observations

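Among epithelial markers, Cdh1 was above background on all 4 treated arrays, and its 2 h and 4 h values overlapped. Cdh1, which encodes E-cadherin of epithelial junctions, read 8.23% and 8.08% at 2 h and 7.88% and 8.14% at 4 h, against 1.67% and 0.96% in untreated cells, where it was not above background. It was at least 4.06-fold higher at 2 h and 3.99-fold higher at 4 h (log2 changes of 2.69 and 2.66, adjusted p = 0.00267 and 0.00275). Cdh1 entered the tests through its treated groups alone, the groups in which it was high. The keratin genes Krt18 and Krt8 were higher by 0.59 and 0.44 at 2 h and 0.71 and 0.44 at 4 h. With Cldn3, 4 of 8 tested epithelial markers were higher (50%) and none lower at each time. Of all genes tested, 23.8% were higher at 2 h and 24.7% at 4 h. Epcam, Cldn4 and Ocln were not above background on any array.

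Of 4 tested skeletal muscle markers, 2 were higher at each time (50%, against 23.8% of all genes at 2 h and 24.7% at 4 h). Ttn, the titin gene, was higher by 1.38 and 0.73 and the embryonic myosin gene Myh3 by 1.03 and 0.34 at 2 h and 4 h. The other 2 did not pass. Ckm, the muscle creatine kinase gene, read 5.27% and 0.57% at 2 h, against 0.52% and 0.35% in untreated cells, and was above background on 1 of 6 arrays. These genes were named after their values were seen.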
